A study of Mus musculus with 6 samples.

Results

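The genes described here are 10 genes of the blood platelet: *Vwf*, *Pf4*, *Ppbp*, *F5*, *Selp*, *Thbs1*, *Clu*, *Serpine2* and *Mmrn1*, whose proteins are stored in or displayed from platelet granules, and *Tubb1*, the beta-tubulin of the platelet. They were chosen by symbol for these roles. All 10 were among the 34573 gene rows of the count table, and all 10 were among the 14004 genes with enough reads for a test. Their levels were compared between hematopoietic stem cells (HSCs) of *Rpl22*-/- and *Rpl22*+/+ mice, with 3 samples per genotype, each sequenced as its own library (referred to as KO and WT replicates 1, 2 and 3). *Rpl22* encodes an RNA-binding protein of the large ribosomal subunit. The *Rpl22*-/- mice lack the gene in all tissues, and both genotypes were young adults backcrossed to the C57BL/6 strain. The HSCs were sorted from bone marrow as lineage-negative cells with Sca-1, c-Kit and CD150 and without CD48. Neither the labels nor the methods say how many mice made up a sample, so the p-values below measure the spread between these samples.

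Platelets are shed by megakaryocytes and carry alpha granules filled with adhesive proteins, chemokines and clotting factors, and dense granules filled with small molecules such as serotonin. On activation the granules fuse with the surface and release their cargo, while a coil of microtubules keeps the resting platelet discoid. Some HSCs already transcribe platelet genes before any lineage choice is visible, and von Willebrand factor marks such platelet-primed stem cells in the mouse. Several of these genes are also used by other cells of the marrow, among them endothelium (*Vwf*, *Selp*) and stroma (*Clu*, *Thbs1*, *Serpine2*).

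Of the 10 genes, 4 lie in neighbouring pairs on GRCm38, the assembly also named mm10. *Selp* (chr1:164115264-164150026) and *F5* (chr1:164151838-164220277) are both on the forward strand, with 1811 bases between them, and *Ppbp* (chr5:90768518-90770063) and *Pf4* (chr5:90772435-90773383) are both on the forward strand, with 2371 bases between them. The promoters of these 4 genes are shown because these genes lie side by side and 3 of them rose in KO HSCs. Each is RefSeq sequence of GRCm38.p6 on the forward strand, 5′ to 3′, from 250 bases before to 50 after the annotated start. Capitals mark matches on either strand to a GATA motif, whose letters were AGATAA, or AGATAG, or else TGATAA, or finally TGATAG, or to an ETS motif, whose letters were AGGAAG, or else CGGAAG, where GATA and ETS are families of transcription factors used by megakaryocytes.
Selp (chr1:164115014-164115313): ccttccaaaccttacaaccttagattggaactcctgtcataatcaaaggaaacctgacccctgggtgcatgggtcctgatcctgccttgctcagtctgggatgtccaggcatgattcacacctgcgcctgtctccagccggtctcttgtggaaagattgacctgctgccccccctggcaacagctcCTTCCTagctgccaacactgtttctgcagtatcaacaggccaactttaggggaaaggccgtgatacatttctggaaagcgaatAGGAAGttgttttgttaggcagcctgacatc
F5 (chr1:164151585-164151884): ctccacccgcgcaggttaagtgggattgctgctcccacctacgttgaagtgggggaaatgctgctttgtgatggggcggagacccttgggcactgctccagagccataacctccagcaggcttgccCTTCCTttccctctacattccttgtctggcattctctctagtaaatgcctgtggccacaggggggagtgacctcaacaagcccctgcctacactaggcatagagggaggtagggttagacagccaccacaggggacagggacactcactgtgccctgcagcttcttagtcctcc
Ppbp (chr5:90768268-90768567): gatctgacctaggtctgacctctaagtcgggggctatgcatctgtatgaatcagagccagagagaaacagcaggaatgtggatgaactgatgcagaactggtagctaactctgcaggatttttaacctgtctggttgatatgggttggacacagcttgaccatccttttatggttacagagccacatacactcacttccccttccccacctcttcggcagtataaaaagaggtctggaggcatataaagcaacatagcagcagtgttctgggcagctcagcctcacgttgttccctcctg
Pf4 (chr5:90772185-90772484): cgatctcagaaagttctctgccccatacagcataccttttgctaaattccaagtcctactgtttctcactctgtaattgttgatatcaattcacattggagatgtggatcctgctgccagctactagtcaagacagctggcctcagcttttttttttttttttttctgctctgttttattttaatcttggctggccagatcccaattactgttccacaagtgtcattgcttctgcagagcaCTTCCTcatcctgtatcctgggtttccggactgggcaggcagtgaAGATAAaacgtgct
The *Pf4* sequence held 1 GATA match, at position 37, and 1 ETS match at -9, counted from 1 at the first base of the transcript and from -1 before it. The *Selp* sequence held 2 ETS matches, at -64 and 20, and the *F5* sequence 1 ETS match at -124. The *Ppbp* sequence held neither motif. RefSeq promoters were at hand for 7 of the 10 genes, of which 2 had a GATA match and 5 an ETS match, while 29.8% and 46.5% of all 32851 promoters of this length held them. These are matches of letters, and binding was not measured.

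The libraries held between 9321123 and 13385850 reads on genes, the lowest in WT replicate 3. *Rpl22* itself measured 35.0 to 43.9 CPM (read counts scaled to library size with edgeR's TMM factors) in the KO libraries and 523 to 562 CPM in the WT libraries. The transcripts of the HSC list (*Slamf1*, which encodes CD150, *Procr*, *Hlf*, *Mecom*, *Fgd5*, *Ctnnal1*, *Kit* and *Ly6a*) summed to between 1690 CPM in KO replicate 2 and 1920 CPM in WT replicate 2, and *Cd48*, which the sort excluded, had 47 to 92 reads per library. Of these 8 HSC genes 3 had positive and 5 negative log2 ratios, with a median of -0.12, and 1 passed the test described next, *Fgd5*, which was lower in KO HSCs (-0.41, edgeR adjusted p = 0.0308). For 3 of them, *Fgd5*, *Hlf* and *Mecom*, every KO library was below every WT library. The genotypes were apart in this way, in either direction, for 26.9% of all genes tested. Differences are given as the log2 ratio of KO over WT, and a gene was called where its Benjamini-Hochberg adjusted p in edgeR (quasi-likelihood) was under 0.05. That held for 780 of all 14004 genes (5.57%), of which 459 were higher and 321 lower in KO HSCs. With scaling by library size alone, 369 were higher and 481 lower.

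In *Rpl22*-/- HSCs, 5 of the 10 genes rose: *Serpine2*, *Thbs1*, *Selp*, *F5* and *Pf4*, by 1.62-fold to 2.46-fold. None fell, and the remaining 5 genes (*Ppbp*, *Vwf*, *Tubb1*, *Clu* and *Mmrn1*) did not pass the test, with log2 ratios from 0.63 down to 0.026. Against the 5 of 10 stand 3.28% of all genes tested that were called higher, 2.29% called lower and 5.57% called in either direction. All 10 log2 ratios were above 0, as were 48.7% of those of all genes, and 7 of the 10 had an unadjusted p below 0.05, against 22.3% of all genes in either direction and 11.6% in the higher direction. The median log2 ratio was 0.66 over the 10 genes and -0.0068 over all genes tested. For 5 of the 10 (*Ppbp*, *F5*, *Selp*, *Thbs1* and *Serpine2*), every KO library was above every WT library, as was the case for 13.3% of all genes tested, and in either direction for 26.9%. These genes were picked with earlier results of the same libraries known, so no test of the group was made.

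**Figure D1:**
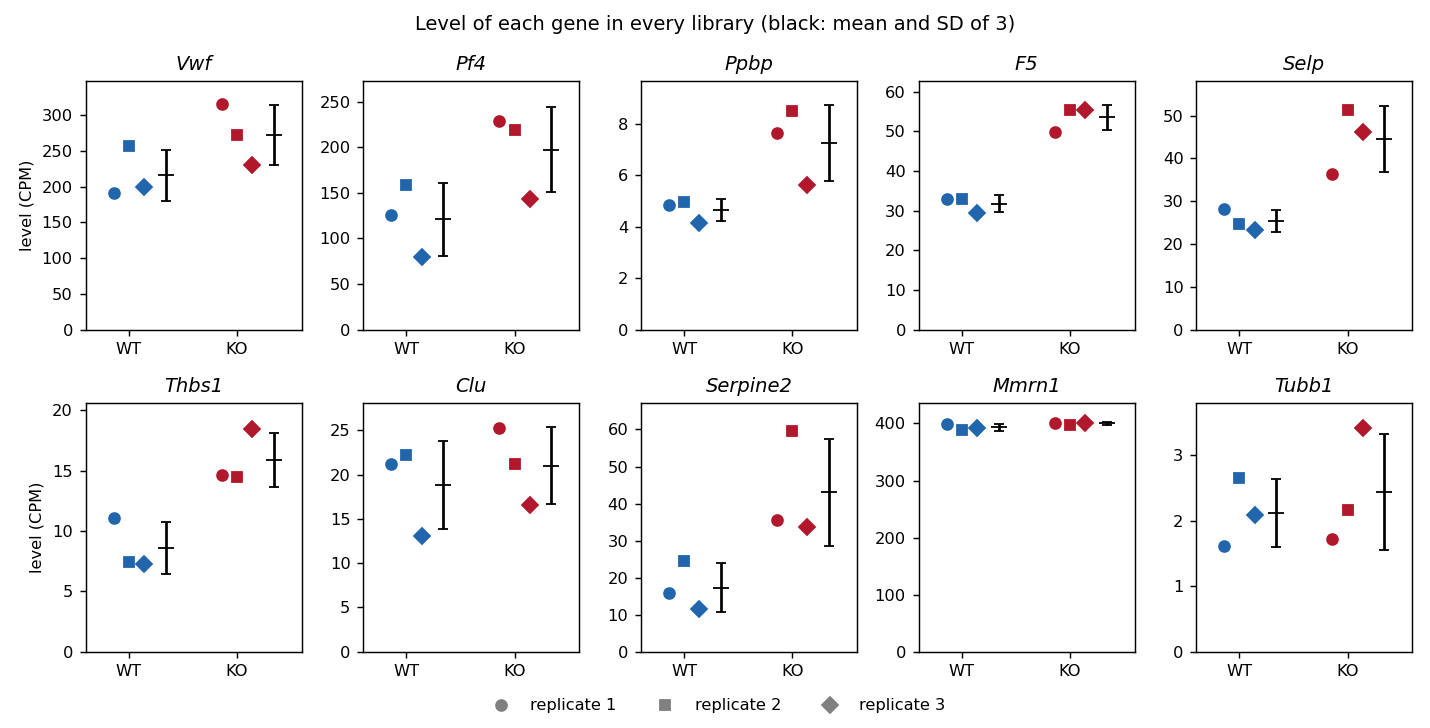
Level in CPM (vertical axis, starting at 0 and different in each panel) of the 10 genes in the 3 WT (blue) and 3 KO (red) libraries, with circles, squares and diamonds for replicates 1, 2 and 3 and the mean and SD in black. *F5*, *Selp*, *Thbs1*, *Serpine2* and *Ppbp* have all KO points above all WT points, *Pf4* and *Vwf* overlap, and *Mmrn1* lies near 400 CPM throughout, between 388 and 402 CPM.

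The proteins that coat wounds and tether platelets were described first. *Vwf* (chr6:125546774-125686679, forward strand) encodes von Willebrand factor, the large multimer that links platelets to exposed collagen. It measured 315, 272 and 230.2 CPM in KO replicates 1, 2 and 3 and 191, 256 and 199 CPM in WT replicates 1, 2 and 3. KO replicate 1 was the highest library, but WT replicate 2 lay above KO replicate 3. The means were 272 ± 42.4 CPM (SD, n = 3) and 215 ± 35.3 CPM (SD, n = 3), a log2 ratio of 0.34 (95% interval 0.075 to 0.60) with edgeR adjusted p = 0.116. The call changed to an adjusted p of 0.00925 with no filter on low counts and to 0.0364 with a replicate term and the trend on gene length removed.

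*Thbs1* (chr2:118111876-118127133, forward strand) encodes thrombospondin 1, an adhesive glycoprotein released from alpha granules. It measured 14.7, 14.5 and 18.5 CPM in the KO libraries, from 174 to 243 reads each, and 11.1, 7.46 and 7.28 CPM in the WT libraries, from 70 to 144 reads each. All KO libraries were above all WT libraries, although WT replicate 1 came closer to them than the other WT libraries did. Its level rose from a WT mean of 8.60 ± 2.13 (SD, n = 3) to a KO mean of 15.9 ± 2.25 CPM (SD, n = 3), and the log2 ratio was 0.87 ± 0.186 (SE) with edgeR adjusted p = 0.0157. The call was lost without KO replicate 3 (0.75, adjusted p = 0.0920), WT replicate 2 (0.78, adjusted p = 0.0743) or WT replicate 3 (0.77, adjusted p = 0.0762). Its exons overlap those of the opposite-strand gene *Gm29233*, which has no row in the count table, by 208 bases.

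*Mmrn1* (chr6:60924976-60989378, forward strand) encodes multimerin 1, a carrier that holds coagulation factor V inside the alpha granule. Its level was 402, 398 and 401 CPM in KO replicates 1, 2 and 3 and 399.6, 388 and 391 CPM in WT replicates 1, 2 and 3. The genotypes overlapped, and the spread within each was small, 0.583% of the mean in KO and 1.48% in WT libraries. The log2 ratio was 0.026 with a 95% interval of -0.15 to 0.198, so that changes beyond these limits in either direction lay outside the interval. With library size alone as the scaling its sign turned (-0.018).

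Factor V itself, the cofactor of prothrombin activation that multimerin binds, is encoded by *F5*. *F5* measured 49.9, 55.3 and 55.4 CPM in the KO libraries and 33.0, 33.1 and 29.3 CPM in the WT libraries. The gap between the lowest KO and the highest WT library was larger than the spread within either genotype. The level rose from a WT mean of 31.8 ± 2.14 (SD, n = 3) to a KO mean of 53.5 ± 3.17 CPM (SD, n = 3), and the log2 ratio was 0.75 ± 0.102 (SE) with edgeR adjusted p = 0.00117, the smallest p of the 10 genes. It passed the threshold under all 16 alternatives, with log2 ratios from 0.695 to 0.80.

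*Selp*, the neighbour of *F5*, encodes P-selectin, an adhesion receptor of the granule membrane that reaches the platelet surface on activation and binds leukocytes. It measured 36.2, 51.4 and 46.2 CPM in the KO libraries and 28.2, 24.6 and 23.3 CPM in the WT libraries. The genotypes did not overlap, and KO replicate 1 was the KO library nearest to the WT libraries. Its level rose from a WT mean of 25.4 ± 2.54 (SD, n = 3) to a KO mean of 44.6 ± 7.68 CPM (SD, n = 3), and the log2 ratio was 0.81 ± 0.134 (SE) with edgeR adjusted p = 0.00465. This call also held under all 16 alternatives, where the adjusted p was at most 0.0448. Exons of *Selp* and *F5* overlap those of the opposite-strand gene *Gm16548* by 438 and 262 bases, and those of *Selp* also overlap the opposite-strand gene *Gm16587* by 186 bases. Whether the counting used strand is not given in the sources used here, so reads in these stretches may belong to either gene. *Gm16548* had 70 to 171 reads per library (log2 ratio 0.51, adjusted p = 0.0892, edgeR), and *Gm16587* had 25 to 58 (0.78, adjusted p = 0.0949).

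The chemokines of the alpha granule are the neighbours *Pf4*, which encodes platelet factor 4 (CXCL4), and *Ppbp*, whose product is cut to the neutrophil attractant CXCL7. *Pf4* measured 229, 219 and 143 CPM in KO replicates 1, 2 and 3 and 126, 159 and 79.2 CPM in WT replicates 1, 2 and 3. KO replicate 3 lay below WT replicate 2, and WT replicate 3 was far under the other WT libraries. The level rose from a WT mean of 121 ± 40.0 (SD, n = 3) to a KO mean of 197 ± 46.9 CPM (SD, n = 3), and the log2 ratio was 0.698 ± 0.195 (SE) with edgeR adjusted p = 0.0484. This call was close to the threshold. It was lost with DESeq2 (adjusted p = 0.204), with library size alone (0.0592), after removal of the gene length trend (0.0965), and without KO replicate 1 (0.0670), KO replicate 2 (0.136), KO replicate 3 (0.0561), WT replicate 1 (0.125) or WT replicate 3 (0.154). Without WT replicate 3 the log2 ratio was 0.47.

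*Ppbp* had few reads, 98, 102 and 74 in the KO libraries and 63, 62 and 40 in the WT libraries. That is 7.64, 8.49 and 5.62 CPM against 4.84, 4.98 and 4.16 CPM, with no overlap of the genotypes. The log2 ratio was 0.63 (95% interval 0.16 to 1.10) with an unadjusted p of 0.0125 and an edgeR adjusted p of 0.104. It did not pass under any of the 16 alternatives, where the adjusted p ranged from 0.0750 to 0.288 and the log2 ratio from 0.50 to 0.78.

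*Serpine2* (chr1:79794197-79861180, reverse strand) encodes protease nexin 1, an inhibitor of thrombin and of plasminogen activators that platelets hold in alpha granules. It had 457, 717 and 444 reads in the KO libraries and 205, 306 and 111 reads in the WT libraries, or 35.6, 59.7 and 33.7 CPM against 15.7, 24.6 and 11.5 CPM. The genotypes did not overlap, but the libraries of each varied more than for most of these genes, with KO replicate 2 highest and WT replicate 3 lowest. The level rose from a WT mean of 17.3 ± 6.64 (SD, n = 3) to a KO mean of 43.0 ± 14.5 CPM (SD, n = 3), and the log2 ratio was 1.30 ± 0.236 (SE) with edgeR adjusted p = 0.00753. It held under all 16 alternatives, from 0.99 without KO replicate 2 to 1.64 without WT replicate 2.

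*Clu* (chr14:65968483-65981547, forward strand) encodes clusterin, a secreted chaperone that is also made by many other cells. It measured 25.3, 21.2 and 16.6 CPM in KO replicates 1, 2 and 3 and 21.2, 22.2 and 13.1 CPM in WT replicates 1, 2 and 3. The genotypes overlapped, and replicate 3 was the lowest library in each. The log2 ratio was 0.15 (95% interval -0.25 to 0.55, adjusted p = 0.698, edgeR), and its sign turned without KO replicate 1 (-0.0033) or WT replicate 3 (-0.046).

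*Tubb1* (chr2:174450695-174457882, forward strand) encodes beta-1 tubulin, the isotype from which the marginal microtubule band of platelets is built. Only 22, 26 and 45 reads fell on it in the KO libraries and 21, 33 and 20 in the WT libraries. In CPM these are 1.71, 2.16 and 3.42 against 1.61, 2.65 and 2.08, with KO replicate 3 highest and the genotypes overlapping. At this depth the log2 ratio of 0.21 had a 95% interval from -0.56 to 0.97 (adjusted p = 0.787, edgeR), and the values of *F5* and *Selp* lay inside that interval. Without KO replicate 3 the value was -0.12.

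**Figure D2:**
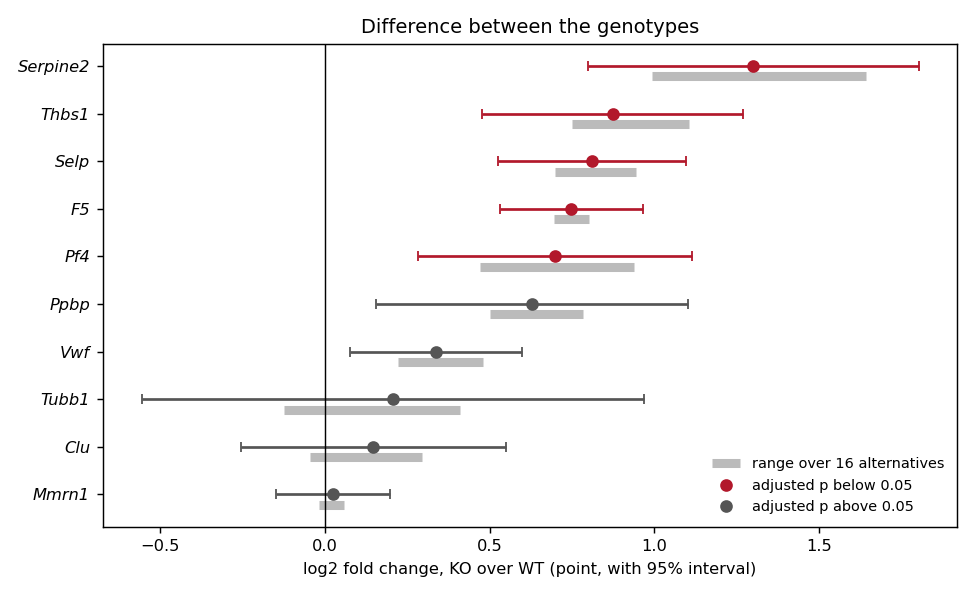
Log2 fold change (horizontal axis, KO over WT) of the 10 genes, as points with 95% intervals, red where the adjusted p was below 0.05, over grey bars that span the values of 16 alternative analyses. *F5*, *Selp*, *Thbs1*, *Serpine2*, *Pf4*, *Ppbp* and *Vwf* stay above 0 in every alternative, while the bars of *Clu*, *Tubb1* and *Mmrn1* cross it.

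The levels of different genes were compared per length, as CPM per kilobase of the transcript with the longest coding sequence. In WT HSCs *Pf4* was highest, at 206 ± 68.0 CPM per kilobase (SD, n = 3), followed by *Mmrn1* at 87.8 ± 1.30 (SD, n = 3) and *Vwf* at 24.4 ± 4.001 (SD, n = 3), and none of these overlapped the next. *Clu*, *Serpine2* and *Selp* came after them with means of 10.4, 7.82 and 7.37 CPM per kilobase, where neighbours overlapped. *Ppbp* and *F5*, at 4.30 and 4.28, could not be ordered, and neither could *Tubb1* and *Thbs1*, at 1.504 and 1.471. Between the adjacent chemokine genes the levels thus differed widely, with *Pf4* at 206 and *Ppbp* at 4.30 CPM per kilobase in WT HSCs and at 336 and 6.69 in KO HSCs. In KO HSCs the first 3 places were the same, and *Serpine2* and *Selp*, at 19.5 and 12.97 CPM per kilobase, had higher means than *Clu* at 11.6, although the libraries of *Selp* and *Clu* overlapped. Where all annotated exons of a gene were taken as its length, *Pf4*, *Mmrn1* and *Vwf* kept the first 3 places and *Serpine2* moved from place 5 to place 8 in WT HSCs.

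The genes did not all vary in the same library. The highest of the 6 libraries was KO replicate 1 for 4 genes, KO replicate 2 for 3 and KO replicate 3 for 3. The lowest was WT replicate 3 for 7 of the 10 genes, WT replicate 1 for 2 and WT replicate 2 for 1. WT replicate 3 was also the shallowest library. Without it, 3 of the 10 genes passed the adjusted threshold (*F5*, *Selp* and *Serpine2*) and the median log2 ratio was 0.52. Of all 14235 genes tested without WT replicate 3, 241 passed. Without KO replicate 3, the same 3 genes passed and the median was 0.74, while 127 genes passed over the whole table.

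Other cargo of platelet granules, was taken from a list of 29 genes beside the 10. Of these, 18 had enough reads for a test, 8 with a positive and 10 with a negative log2 ratio, and the median was -0.017. Of the 18, 1 passed the test, *Tgfb1*, the transforming growth factor that platelets store in alpha granules, which is about the share over all genes (5.57%). It rose from a WT mean of 198 ± 14.8 (SD, n = 3) to a KO mean of 315 ± 39.1 CPM (SD, n = 3), and the log2 ratio was 0.67 with edgeR adjusted p = 0.00254, a call that held under all 16 alternatives. The next smallest p-values were those of *Pros1*, the anticoagulant protein S (log2 ratio 0.29, adjusted p = 0.211), and *Pdgfb*, a chain of platelet-derived growth factor (0.34, adjusted p = 0.233). *F13a1*, the clot-stabilising factor XIII A chain, had 4, 115 and 25 reads in the KO libraries and 21, 16 and 36 in the WT libraries, with most KO reads in KO replicate 2, and a log2 ratio of 0.85 (adjusted p = 0.520). The fibrinogen genes *Fga*, *Fgb* and *Fgg*, whose product platelets take up from plasma, had no read in any library.

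The machinery that builds, loads and releases granules was represented by 25 genes, all tested, with a median log2 ratio of 0.031. Of these 25, 2 passed, 1 in each direction, where 5.57% of all genes did, so that the count was close to the share over all genes. *Slc35d3*, a transporter-like protein needed for dense granules in mice, rose from a WT mean of 18.0 ± 3.68 (SD, n = 3) to a KO mean of 26.9 ± 3.14 CPM (SD, n = 3), and the log2 ratio was 0.58 with edgeR adjusted p = 0.0380. *Slc18a2*, the vesicular monoamine transporter that loads serotonin, fell from a WT mean of 368 ± 32.1 (SD, n = 3) to a KO mean of 243 ± 77.3 CPM (SD, n = 3), and the log2 ratio was -0.596 with edgeR adjusted p = 0.0409. Every library of the genotypes lay apart for both, but each passed under 9 of the 16 alternatives only. *Slc35d3* lost the call with library size alone (edgeR adjusted p = 0.0537), after removal of the gene length trend (0.0572), and without KO replicates 1 (0.0575), 2 (0.0732) or 3 (0.0839) or WT replicates 1 (0.15) or 3 (0.149). *Slc18a2* lost it with DESeq2 (adjusted p = 0.177), after removal of the gene length trend (0.053), and without KO replicates 2 (0.101) or 3 (0.165) or any of WT replicates 1, 2 and 3 (0.1, 0.0814 and 0.145). *Hps5*, a subunit of a complex for lysosome-related organelles, had the next smallest p (log2 ratio -0.26, adjusted p = 0.0757).

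For the cytoskeleton, 23 of 25 listed genes and 5 of 7 other beta-tubulin genes were tested. Among the 23, 22 had positive log2 ratios with a median of 0.205, and 3 passed the test, all higher in KO HSCs, while over all genes tested 48.7% were positive and 3.28% were called higher. *Tuba8*, an alpha-tubulin isotype, rose from a WT mean of 59.6 ± 13.8 (SD, n = 3) to a KO mean of 98.2 ± 17.1 CPM (SD, n = 3), and the log2 ratio was 0.71 with edgeR adjusted p = 0.0131. *Zyx*, the focal adhesion protein zyxin, and *Pfn1*, the actin monomer carrier profilin, had log2 ratios of 0.42 and 0.43 (edgeR adjusted p = 0.0111 and 0.0223). All 3 lost the call without KO replicate 3 (0.0685, 0.0514 and 0.0839) or WT replicate 1 (0.0571, 0.0697 and 0.1), and without WT replicate 3 *Tuba8* (0.0555) and *Pfn1* (0.0909) lost it. *Pfn1* also lost it without KO replicate 2 (0.0665) or WT replicate 2 (0.0814), whereas 5 cytoskeletal genes passed without KO replicate 1. *Tuba4a*, the main alpha-tubulin partner in platelets, had a log2 ratio of 0.198 (adjusted p = 0.212). None of the 5 other beta-tubulin genes tested passed with edgeR, DESeq2 or limma-voom, and 0 had an unadjusted p below 0.05 in edgeR. Of these *Tubb2a* (0.31, adjusted p = 0.391), *Tubb4a* (-0.25, adjusted p = 0.698) and *Tubb4b* (0.057, adjusted p = 0.766) had the smallest p-values, with log2 ratios of both signs.

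**Figure D3:**
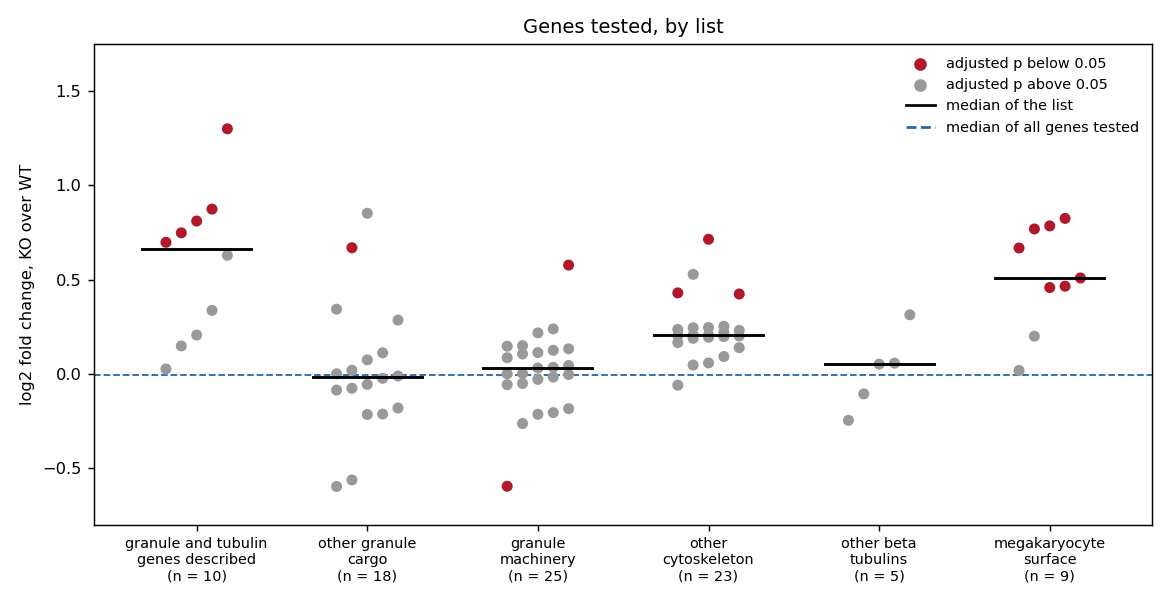
Log2 fold change (vertical axis, KO over WT) of every gene tested in 6 lists, red where the adjusted p was below 0.05, with the median of each list as a black line and the median of all 14004 genes as a dashed blue line. The medians of the 10 genes described (0.66) and of the megakaryocyte surface genes (0.51) stand highest, while those of the other granule cargo (-0.017) and of the granule machinery (0.031) lie near the dashed line.

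Surface proteins of megakaryocytes were higher in the same libraries. Of 9 tested from a list of 11, 7 passed the test, all higher in KO HSCs, against 3.28% of all genes called higher, and the median log2 ratio was 0.51. *Gp1ba*, *Gp1bb*, *Gp9* and *Gp5* encode the receptor for von Willebrand factor, and they rose by 0.67, 0.82, 0.46 and 0.77 (log2 ratios, edgeR adjusted p = 0.0143, 0.00792, 0.0477 and 0.00237), while *Vwf* itself did not pass. *Gp9* passed under 8 of the 16 alternatives, with an adjusted p of up to 0.199. *Itga2b* and *Itgb3*, the subunits of the platelet fibrinogen receptor, rose by 0.51 and 0.47 (adjusted p = 0.0115 and 0.0216). *Treml1*, a receptor stored in the alpha granule membrane, rose by 0.78 (adjusted p = 0.00441). *Clec1b* had 14 to 53 reads per library, *P2ry12* had 1 to 4, and the collagen receptor *Gp6* had none in any library. The list's summed level was 1354 to 1437 CPM in the KO and 1068 to 1175 CPM in the WT libraries. Between 3 and 7 of these genes passed under the 16 alternatives. The count was 3 without WT replicate 1, 4 without WT replicate 3, and 5 each without KO replicate 2 or KO replicate 3. Over all genes tested, 206 of 14270 passed without WT replicate 1 and 241 of 14235 without WT replicate 3. The same count was 370 of 14293 without KO replicate 2 and 127 of 14244 without KO replicate 3. In bulk libraries more cells of a type and more RNA per cell cannot be told apart, and the part of either in the values of the 10 genes was not tested.

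Markers of other cells were summed in each library. Endothelial genes (*Pecam1*, *Cdh5*, *Kdr*, *Tek*, *Emcn*, *Cldn5*, *Plvap*) summed to 181 to 188 CPM in the KO and 159 to 189 CPM in the WT libraries, and stromal genes (*Cxcl12*, *Lepr*, *Col1a1*, *Col1a2*, *Col3a1*, *Pdgfrb*, *Kitl*) to 22.2 to 29.2 and 26.2 to 38.4 CPM, so both lists overlapped between the genotypes. Macrophage genes overlapped as well, at 15.2 to 26.1 and 17.0 to 21.02 CPM. Most of the endothelial sum came from *Pecam1* (659 to 1039 reads per library) and *Tek* (780 to 1002), while *Cdh5* had at most 1 read. Of 5 endothelial genes tested, 2 had positive and 3 negative log2 ratios. *Pecam1* had every KO library above every WT library (0.25, edgeR adjusted p = 0.155). Neutrophil granule genes summed to 101 to 227 CPM in the KO and 66.9 to 106 CPM in the WT libraries, with the highest value in KO replicate 2, where *Mpo* had 1218 reads against 19 to 225 elsewhere. Of the 10 neutrophil genes, 9 had positive log2 ratios, the median was 1.73, and 7 had an unadjusted p below 0.05, all higher. The test was passed by 2, *Ctsg* (2.85, edgeR adjusted p = 0.0282) and *Camp* (2.43, edgeR adjusted p = 0.0291), each with every KO library above every WT library. Of all genes tested, 48.7% had positive log2 ratios and 11.6% were higher with an unadjusted p below 0.05. Called higher were 3.28%, and 13.3% had every KO library above every WT library. Without KO replicate 2, 4 of the 10 granule and tubulin genes passed, all but *Pf4* of the 5, while 370 of 14293 genes passed over the whole table. The erythroid list was higher in every KO library, at 987 to 1026 CPM against 856 to 905 CPM, and *Car2*, which HSCs also express, held most of it with 7861 to 12960 reads per library, while *Slc4a1* had at most 3, and of 6 tested 0 were called higher and 1, *Car1*, lower (-1.37, edgeR adjusted p = 0.0246). B cell genes (24.6 to 28.2 against 21.2 to 23.4 CPM) and genes of T and NK cells (38.3 to 45.7 against 32.5 to 37.4 CPM) were also slightly higher in every KO library, with *Ms4a1* and *Cd3e* at 0 reads in all. The part of these differences in the values of the 10 genes was not tested.

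**Figure D4:**
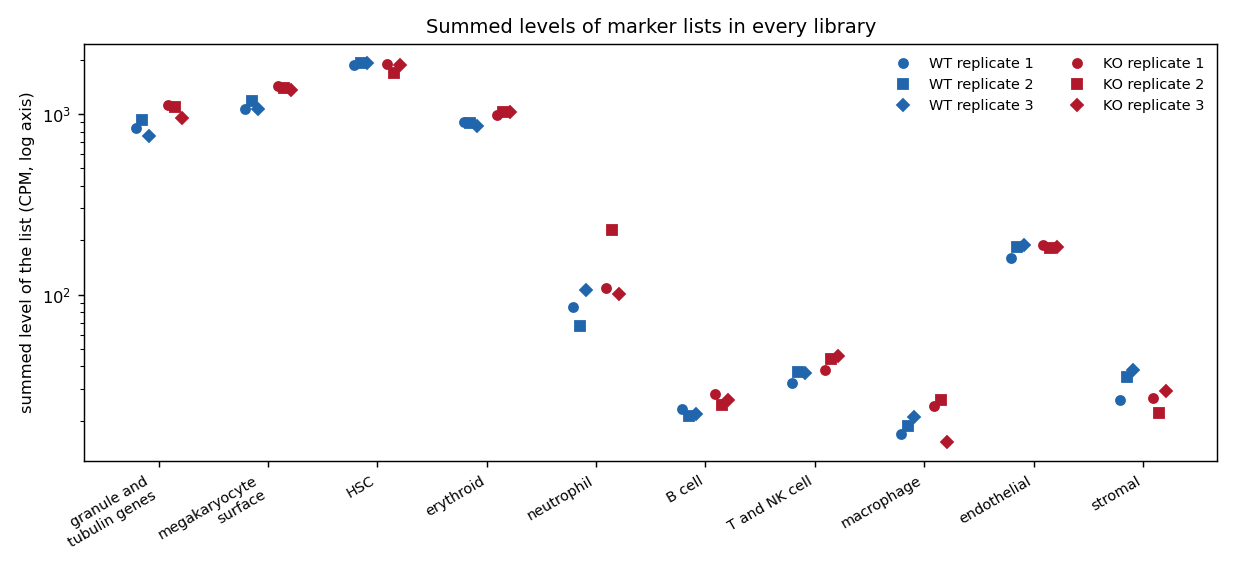
Summed level in CPM (vertical axis, logarithmic) of the 10 genes and of 9 marker lists in each WT (blue) and KO (red) library. The sums of the 10 genes (954 to 1117 CPM in KO, 760.5 to 923 CPM in WT libraries) and of the megakaryocyte surface list are apart between the genotypes, the endothelial and stromal sums overlap, and KO replicate 2 stands above the other libraries for neutrophil genes.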

How the data were processed

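RNA of sorted HSCs from 3 *Rpl22*-/- and 3 *Rpl22*+/+ samples was made into polyA libraries with a TruSeq kit. The authors aligned reads to mm10 with TopHat2 (version 2.1.1 in the submitters' processing notes) and deposited raw HTSeq read counts per gene. The annotation and strand setting are not given in the sources used here. HTSeq's totals of unassigned reads, 58.6% to 60.9% of each library, were left out, and no per-sample column was unused (0).

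Genes were filtered with filterByExpr (minimum count 10), which left 14004, and scaled by TMM. KO and WT were compared by the quasi-likelihood test of edgeR 4.0.16 under R 4.3.3, and p-values were adjusted after Benjamini and Hochberg across the whole table. Means and SDs cover 3 libraries. Standard errors were taken as the log2 ratio (KO over WT) divided by the root of its F statistic, and 95% intervals use the moderated degrees of freedom. Positions and lengths came from GENCODE M21, copies from BLAST 2.17.0, promoters from RefSeq. No other gene shared 95% identity over 100 bases with 6 of the 10 genes. *F5*, *Selp* and *Thbs1* did so with overlapping opposite-strand genes, and *Vwf* over short stretches with many genes. DESeq2 1.42.0 and limma 3.58.1 were alternatives, and all tools were tested on simulated data. Figures used matplotlib 3.10.9.

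The genes and lists were chosen with earlier results of these data known. Named are *Rpl22*, the 10 genes, *F13a1* and *Tuba4a*, and, of the lists of granule cargo, granule machinery, cytoskeleton, beta-tubulins and megakaryocyte surface, every gene that passed or, where fewer than 3 did, those with the smallest p-values up to 3. Marker lists of other cells were given by their sums and genes at 0. Other genes named were chosen after their values were seen. Some genes are not reported here.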

Additional observations from a re-analysis of the deposited data

How the results depend on the processing

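Of 160 values of the 10 genes under 16 alternatives, 143 kept direction and side of the threshold, 11 lost and 2 gained the call, and 4 changed sign: *Mmrn1* with library size alone (-0.018), *Clu* without KO replicate 1 (-0.0033) or WT replicate 3 (-0.046), and *Tubb1* without KO replicate 3 (-0.12). Library size alone also moved the split of all calls to 43.4% higher, against 58.8%. Leaving out 1 library moved *Clu* up to 0.295 (without KO replicate 3) and *Tubb1* up to 0.41 (without WT replicate 2) at most. With 1 library left out, the number of genes called ran from 127 to 1720 over all genes, from 3 to 4 of the 10, from 0 to 1 for the granule machinery and from 0 to 5 for the cytoskeleton, and stayed at 1 for other cargo. With no filter on low counts 1422 genes passed. The granule machinery had 1 call with DESeq2 and 0 with the trend on gene length removed. Over all genes tested, the same replicate numbers did not deviate together (correlations -0.103, 0.0549 and 0.0448), so they were not taken as pairs. With the replicate block 904 genes and 5 of the 10 passed, and with the block and the length trend removed 645 genes and 6 of the 10. With the block alone the edgeR adjusted p was 3.84e-04 for *Pf4* and 1.66e-05 for *Serpine2*, while *Vwf* (0.0731) and *Ppbp* (0.104) did not pass. The cause of these differences was not tested. Depth limits *Tubb1* (20 to 45 reads per library) and *Ppbp* (40 to 102).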

Other observations

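Genes within 100 kb of the 10 were looked at after the values above were known. *Slc19a2*, a thiamine transporter 28768 bases from *F5*, had a log2 ratio of 0.45 (adjusted p = 0.103), and *Blzf1*, a Golgi protein 69522 bases from *F5*, had -0.075 (adjusted p = 0.745). *Cd9*, a tetraspanin abundant on platelets that lies 51982 bases from *Vwf*, rose from a WT mean of 162 ± 19.1 (SD, n = 3) to a KO mean of 278 ± 22.3 CPM (SD, n = 3), and the log2 ratio was 0.77 with edgeR adjusted p = 8.72e-04. *Atp5e*, a subunit of the mitochondrial ATP synthase 3189 bases from *Tubb1* on the opposite strand, had -0.33 (adjusted p = 0.105). Its unadjusted p in edgeR was 0.0126, and every KO library was below every WT library. The authors, who used DESeq2, report reduced *Atp5e* expression in *Rpl22*-/- HSCs. *Mrpl44* and *Wdfy1*, 12751 and 18053 bases from *Serpine2* on the same side, had 0.061 and -0.042 (adjusted p = 0.767 and 0.816).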
